A study of Mus musculus with 18 samples.

Results

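The genes described here are the Runx transcription factors with the ETO and TLE corepressors that work with them, in cultured mouse cumulus cells. They were taken by name, as every array probe set annotated with exactly 1 gene symbol from a list of 10 genes (Runx1, Runx2, Cbfb, Runx1t1, Cbfa2t2, Cbfa2t3, Tle1, Tle2, Tle3 and Tle4). The symbols alone decide membership, but the list was chosen by a reading of earlier results on these arrays, so its genes may have been picked on the group levels and calls given below. The adjusted p-values come from a fit over the whole table and describe each probe set, and the counts are no evidence about the family. The list took in 30 of 34945 probe sets with 1 symbol, which read 9 of the 10 genes. Runx2 had no probe set listed with its symbol alone and is not analysed here.

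RUNX proteins bind DNA as pairs with the subunit encoded by Cbfb, which itself does not touch DNA, and they activate some genes and silence others. TLE proteins, the mammalian relatives of fly Groucho, are recruited by RUNX, HES and TCF factors and silence genes. ETO proteins bring nuclear receptor corepressors and histone deacetylases to DNA-bound factors. In the ovary, Runx1 marks granulosa cells of the mouse, and Runx1 and Runx2 are known from the rat as genes induced in granulosa cells by the ovulatory hormone surge.

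The study asked how oocytes and estrogen act together on cumulus cells, the layer of granulosa cells wrapped around the egg. Cumulus cell RNA was hybridised to 18 arrays, which form 6 groups of 3. Cocultures were complexes whose oocyte had been taken out and which were then grown with oocytes (OOX + Oocytes), oocyte-free complexes were grown alone (OOX), and intact complexes kept their own oocyte (COC). Each was cultured with estrogen (E2) or without it. All cells came from antral follicles of female mice, and the labels give no strain, age, dose, culture time or number of animals pooled. Whether the replicates of a group are separate cultures or animals is not stated, so p-values reflect the spread among the arrays as deposited, and that spread may be a technical one. The title of oocyte-free replicate 1 with estrogen names estrogen while its source name and treatment label do not. The title was followed, and called changes that use this array are also given without it.

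Values are log2 expression values as deposited, so 1 unit is a doubling, and one probe set's level is not set against another's. Array medians lay between 5.51 and 5.71. By their array names the arrays belong to 3 series (13, 2 and 3 arrays), and all 3 oocyte-free arrays without estrogen lie outside the series of 13, which holds every intact array. Oocyte-free replicate 1 without estrogen, 1 of the 2 arrays of the second series, had the narrowest interquartile range, 2.54 against 2.70 to 3.06 on the other arrays. The 11 tested granulosa and cumulus markers averaged between 9.48 and 11.11 on the arrays. Averages of different marker lists come from different probe sets and do not give shares of cell types. The listed endothelial markers (7 genes) averaged between 4.45 and 4.96 and the listed blood cell markers (8 genes) between 4.64 and 5.10. Of these, 2 endothelial and 2 blood cell markers were tested and called in no comparison, with group means of 5.98 to 6.32 for Kdr, 6.36 to 6.69 for Esam, 5.58 to 5.85 for Spi1 and 6.26 to 6.65 for Csf1r, and Pecam1, Cdh5 and Ptprc did not pass the filter on dim values. Of 12 oocyte markers, 4 were tested and 1, Bcl2l10, was called in any comparison. Its group means were 4.34 and 4.40 in oocyte-free complexes with and without estrogen and between 8.11 and 8.71 in the other groups. The other tested oocyte markers did not follow it, with group means of 6.80 to 7.02 for Gdf9, 5.56 to 6.11 for Dppa3 and 5.58 to 5.88 for Figla. Zp1, Zp2, Zp3 and Bmp15 did not pass the filter on dim values. In such bulk RNA, fewer cells of a type and less RNA per cell cannot be told apart.

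Promoter windows of 300 bases (250 before to 50 after a gene's start, RefSeq, GRCm38.p6) were at hand for 9 of the 10 genes, 12 windows in all. The windows of the 3 genes with the widest range of group means are shown, because these genes carry the results that follow. Runx1 and Cbfa2t3 have 2 annotated starts each and so 2 windows. Capitals mark the RUNX core TGTGGT in the Runx1 windows and the GC box GGGCGG, a motif bound by SP factors, in the others, each searched on both strands.
Tle2, chr10:81575037-81575336, plus strand: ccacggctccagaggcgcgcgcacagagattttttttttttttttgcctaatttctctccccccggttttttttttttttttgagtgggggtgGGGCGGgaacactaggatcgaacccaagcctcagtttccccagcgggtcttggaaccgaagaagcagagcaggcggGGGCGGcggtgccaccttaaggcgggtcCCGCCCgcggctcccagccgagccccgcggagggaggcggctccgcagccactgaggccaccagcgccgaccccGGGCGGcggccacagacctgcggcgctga
Cbfa2t3 window 1, chr8:122699060-122699359, minus strand: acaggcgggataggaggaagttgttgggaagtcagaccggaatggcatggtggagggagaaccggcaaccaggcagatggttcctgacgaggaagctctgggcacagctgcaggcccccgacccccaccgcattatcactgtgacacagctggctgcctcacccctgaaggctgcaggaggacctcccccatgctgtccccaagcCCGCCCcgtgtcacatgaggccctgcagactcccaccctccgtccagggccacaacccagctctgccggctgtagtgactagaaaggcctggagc
Cbfa2t3 window 2, chr8:122678126-122678425, minus strand: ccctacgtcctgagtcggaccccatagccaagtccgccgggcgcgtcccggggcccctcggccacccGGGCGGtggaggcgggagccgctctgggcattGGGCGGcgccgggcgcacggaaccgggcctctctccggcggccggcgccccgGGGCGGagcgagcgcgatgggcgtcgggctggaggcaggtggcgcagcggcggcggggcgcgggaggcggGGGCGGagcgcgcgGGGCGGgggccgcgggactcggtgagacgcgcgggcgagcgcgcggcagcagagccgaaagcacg
Runx1 window 1, chr16:92826025-92826324, minus strand: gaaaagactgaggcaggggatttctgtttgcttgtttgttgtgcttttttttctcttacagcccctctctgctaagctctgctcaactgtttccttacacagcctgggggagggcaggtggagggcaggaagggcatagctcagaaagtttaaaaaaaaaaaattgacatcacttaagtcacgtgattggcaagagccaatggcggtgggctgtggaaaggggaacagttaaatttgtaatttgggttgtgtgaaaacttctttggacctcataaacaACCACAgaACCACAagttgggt
Runx1 window 2, chr16:92697280-92697579, minus strand: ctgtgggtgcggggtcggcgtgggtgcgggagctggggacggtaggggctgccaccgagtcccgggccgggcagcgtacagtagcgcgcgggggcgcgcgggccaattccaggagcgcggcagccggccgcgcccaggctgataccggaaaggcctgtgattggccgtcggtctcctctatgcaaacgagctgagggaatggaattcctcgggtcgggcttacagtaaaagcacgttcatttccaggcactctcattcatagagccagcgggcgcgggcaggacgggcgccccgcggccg
Window 1 of Runx1 holds the RUNX core at 28 and 36 bases after the start, on the other strand, and window 2 holds none. Of the 12 windows, 2 held the RUNX core (Runx1 and Runx2), against 16.8% of all 32851 mouse windows. The GC box stood in 8 of 12 windows, against 35.7% of all, with 4 copies in Tle2 and 5 in window 2 of Cbfa2t3. The estrogen response half-site GGTCA, on either strand, stood in 2 windows, those of Runx2 and Cbfa2t2, against 40.5% of all. A match describes these letters and is not evidence of a binding site.

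Of the 30 probe sets, 22 passed the filter on dim values (above the array median on at least 3 of 18 arrays) and were tested, and they read 8 genes. The other 8 were all 6 of Runx1t1, 1 of Tle3 and 1 of Tle4. A probe set was called where limma's p-value, adjusted by Benjamini-Hochberg over 21249 tested probe sets, was under 0.05. Each gene's main probe set is the one with the highest mean over the 18 arrays. All changes are log2 differences followed by their standard error (SE) from the limma fit over all 18 arrays, 3 per group.

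The TLE genes split by direction when the oocyte was taken out. Tle2, Tle3 and Tle4 rose in oocyte-free complexes and Tle1 fell, and the changes ran the opposite way in cocultures against oocyte-free complexes. The removal and the coculture comparisons share the oocyte-free arrays, so the second is not independent of the first. Over all genes of the list, removal without estrogen called 13 of 22 probe sets (9 higher, 4 lower), where 35.1% of all tested probe sets were called (15.9% higher, 19.2% lower). Removal with estrogen called 8 (5 higher, 3 lower), against 26.6% of all (11.9% higher, 14.6% lower). Cocultures against oocyte-free complexes called 11 without estrogen (4 higher, 7 lower), against 29.9% of all (17.9% higher, 12.0% lower). With estrogen they called 7 (3 higher, 4 lower), against 21.4% of all (12.1% higher, 9.29% lower).

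**Figure D1:**
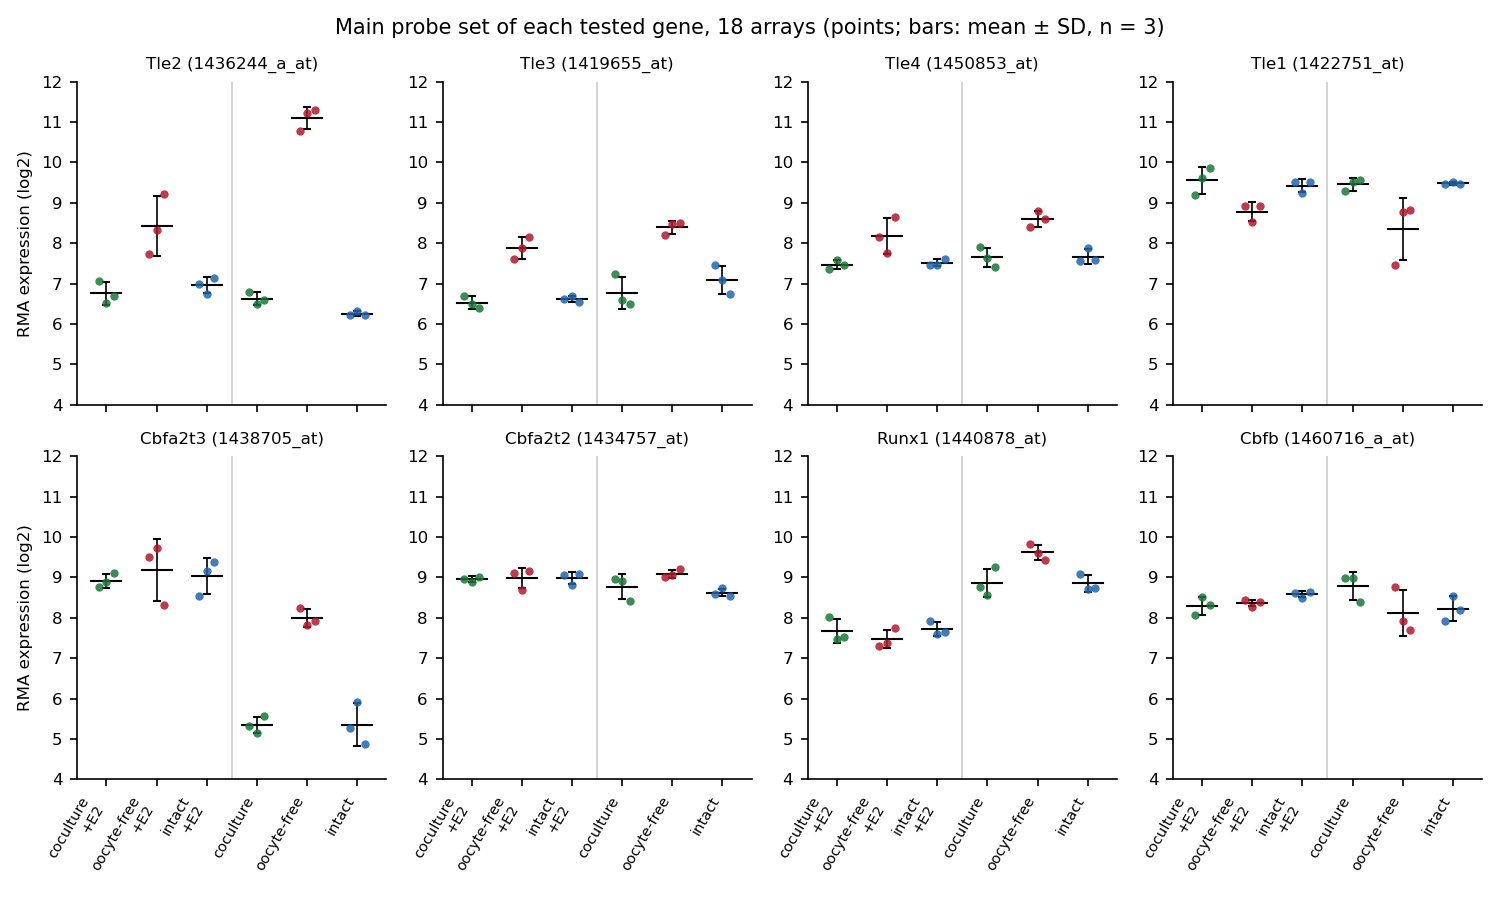
Log2 expression (vertical axis) of the main probe set of 8 genes in each of 18 arrays, with estrogen to the left of the grey line and without it to the right (points are arrays, bars the mean ± SD, n = 3). Tle2 reached 10.78 to 11.29 in oocyte-free complexes without estrogen against 6.22 to 6.33 in intact complexes, and Cbfa2t3 was 8.31 or above on every array with estrogen.

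Tle2, a TLE corepressor read by 1 probe set (1436244_a_at), changed most. Without estrogen it measured 10.78, 11.23 and 11.29 in oocyte-free complexes, against 6.22, 6.33 and 6.22 in intact complexes. With estrogen it measured 7.72, 8.33 and 9.21 in oocyte-free complexes, against 6.99, 6.75 and 7.14 in intact complexes. The oocyte-free arrays were the higher ones in both media and the groups did not overlap. The rise on removal was 4.84 ± 0.27 (SE) without estrogen, a 28.7-fold difference (limma adjusted p = 1.06e-09), and 1.46 ± 0.27 with estrogen, a 2.75-fold difference (limma adjusted p = 0.000628).

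Cocultures brought Tle2 back to low values. It measured 7.07, 6.51 and 6.69 in cocultures with estrogen and 6.80, 6.49 and 6.59 in cocultures without estrogen, below every oocyte-free array. Against oocyte-free complexes Tle2 fell by 4.47 ± 0.27 without estrogen, a 22.2-fold difference (limma adjusted p = 3.59e-09), and by 1.66 ± 0.27 with estrogen (limma adjusted p = 0.000242). Estrogen lowered Tle2 in oocyte-free complexes by 2.68 ± 0.27, a 6.41-fold difference (limma adjusted p = 1.24e-05). In the other culture types the estrogen changes were 0.13 ± 0.27 in cocultures (limma adjusted p = 0.859) and 0.70 ± 0.27 in intact complexes (limma adjusted p = 0.184), which did not pass. The intact arrays with and without estrogen did not overlap for Tle2, and with array series as a term that change of 0.70 passed (limma adjusted p = 0.0375). The estrogen change in oocyte-free complexes was thus -3.38 ± 0.38 relative to that in intact complexes (interaction, limma adjusted p = 9.6e-05), and that in cocultures was 2.81 ± 0.38 relative to that in oocyte-free complexes (limma adjusted p = 0.000595). Over the list, the interaction with removal called 2 of 22 probe sets, those of Tle2 and Cbfa2t3 and both lower, against 2.54% of all tested probe sets (1.49% higher, 1.04% lower). The interaction with added oocytes called the main probe sets of the same genes, both higher, against 2.24% of all (0.725% higher, 1.51% lower).

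These differences in Tle2 held within array series where a series had both groups. In the series of 13, removal with estrogen gave 1.07 (2 arrays against 3). In the series of 2, coculture against oocyte-free without estrogen gave -4.19 (1 array against 1). In the series of 3, estrogen in oocyte-free complexes gave -2.05 (1 array against 2). Without the array of conflicting labels, which was the lowest oocyte-free value with estrogen, the fall of Tle2 under estrogen was -2.33 (limma adjusted p = 4.73e-05), the removal change with estrogen 1.81 (limma adjusted p = 4.8e-05) and the coculture change with estrogen -2.01 (limma adjusted p = 2.2e-05). The interactions were then -3.03 (limma adjusted p = 0.000129) and 2.46 (limma adjusted p = 0.000826). No series held both oocyte-free and intact arrays without estrogen. With array series as a term, the rise of Tle2 on removal without estrogen was 4.16 (limma adjusted p = 1.96e-07).

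Tle3, a second corepressor of the family, rose on removal in both media by similar amounts. Its main probe set (1419655_at) measured 7.61, 7.87 and 8.16 in oocyte-free complexes with estrogen, against 6.62, 6.69 and 6.55 in intact complexes with estrogen. Without estrogen it measured 8.19, 8.47 and 8.50 in oocyte-free complexes, against 7.45, 7.08 and 6.74 in intact complexes. No oocyte-free array overlapped with an intact one. The rise was 1.26 ± 0.21 with estrogen (limma adjusted p = 0.000243) and 1.30 ± 0.21 without (limma adjusted p = 0.000141), and the difference between these changes, -0.04 with a 95% interval from -0.67 to 0.59, did not pass (limma adjusted p = 0.978). Cocultures fell by 1.35 ± 0.21 with estrogen (limma adjusted p = 0.00016) and by 1.62 ± 0.21 without (limma adjusted p = 1.97e-05). A further Tle3 probe set (1458512_at) rose by 1.12 ± 0.26 and 1.56 ± 0.26 on removal with and without estrogen. It was above the array median on 8 arrays, which included every oocyte-free array. The remaining arrays above the median were fewer than 3, so it passed the filter on dim values only through oocyte-free arrays. Probe set 1419654_at rose by 0.59 ± 0.17 without estrogen. It passed the filter on dim values only through the 3 oocyte-free arrays without estrogen, at 5.89, 5.61 and 5.85. The removal and coculture calls of 1458512_at and 1419654_at, counted above, are therefore no further support for the Tle3 result. Leaving out the array of conflicting labels, the changes with estrogen of the main Tle3 probe set were 1.40 on removal (limma adjusted p = 0.000334) and -1.49 in cocultures (limma adjusted p = 0.00024), and those of 1458512_at were 1.14 and -1.05, both called. Tle3 probe set 1449554_at stayed between 4.19 and 4.74 on all arrays and was not tested.

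Tle4 moved the same way and by less. Its main probe set (1450853_at) measured 8.15, 7.76 and 8.64 in oocyte-free complexes with estrogen, against 7.45, 7.47 and 7.61 in intact complexes with estrogen. Without estrogen it measured 8.40, 8.79 and 8.60 in oocyte-free complexes, against 7.55, 7.88 and 7.57 in intact complexes. The groups did not overlap in either medium. The rise was 0.67 ± 0.20 with estrogen (limma adjusted p = 0.0161) and 0.93 ± 0.20 without (limma adjusted p = 0.00131). Without oocyte-free replicate 3 with estrogen, the highest value, the rise with estrogen was 0.44 (limma adjusted p = 0.0973), and with array series as a term the rise without estrogen was 0.67 (limma adjusted p = 0.0547). Tle4 fell in cocultures by 0.72 ± 0.20 with estrogen (limma adjusted p = 0.014) and by 0.95 ± 0.20 without (limma adjusted p = 0.00143). The Tle4 changes with estrogen, computed without the array of conflicting labels, were 0.69 on removal (limma adjusted p = 0.0342) and -0.73 in cocultures (limma adjusted p = 0.0306). Probe set 1430384_at of Tle4 was called in no comparison, and 1425650_at, between 3.41 and 3.92 on all arrays, was not tested.

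Tle1 went the other way. Its main probe set (1422751_at) measured 7.45, 8.78 and 8.81 in oocyte-free complexes without estrogen, against 9.46, 9.52 and 9.46 in intact complexes. With estrogen it measured 8.91, 8.52 and 8.91 in oocyte-free complexes, against 9.52, 9.24 and 9.51 in intact complexes. Every oocyte-free array lay below every intact one, with replicate 1 without estrogen far below its group's other arrays. The fall without estrogen was -1.13 ± 0.27 (limma adjusted p = 0.00386), and -0.69 without that replicate (limma adjusted p = 0.00834). The change with estrogen, -0.64 ± 0.27, did not pass (limma adjusted p = 0.0956), but the second Tle1 probe set (1434033_at) fell by 0.99 ± 0.23 with estrogen (limma adjusted p = 0.00403) and by 0.92 ± 0.23 without (limma adjusted p = 0.00511). In cocultures without estrogen the main probe set rose by 1.11 ± 0.27 against oocyte-free complexes (limma adjusted p = 0.0056), and by 0.66 without the same oocyte-free replicate (limma adjusted p = 0.0122). Its coculture change with estrogen, 0.78 ± 0.27, did not pass (limma adjusted p = 0.0528), although the groups did not overlap. The second Tle1 probe set rose in cocultures by 1.09 ± 0.23 with estrogen (limma adjusted p = 0.00245) and by 1.19 ± 0.23 without (limma adjusted p = 0.000843). Its changes with estrogen, computed without the array of conflicting labels, were -1.03 on removal (limma adjusted p = 0.00938) and 1.14 in cocultures (limma adjusted p = 0.00625).

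Some of the listed granulosa and cumulus markers also changed in these comparisons. Of 11 tested, 5 were lower and 0 higher in oocyte-free against intact complexes with estrogen, where 28.8% of all main probe sets were called (12.3% higher, 16.5% lower). Without estrogen 5 were lower and 3 higher, where 37.5% of all were called (17.4% higher, 20.1% lower). The means in oocyte-free against intact complexes without estrogen were 11.63 against 10.60 for Foxl2, 9.38 against 8.44 for Nr5a1 and 12.08 against 11.51 for Amhr2. They were 8.86 against 13.09 for Hsd17b1 and 5.76 against 7.08 for Fshr. The mean level of the 11 on an array lay between 9.96 and 10.29 in oocyte-free complexes with estrogen, against 10.88 to 11.10 in intact complexes. Without estrogen it lay between 9.48 and 9.63, against 10.19 to 10.39. Of the 9 theca and stroma markers with a probe set, 5 were tested. On removal 2 were higher and 0 lower with estrogen, against 28.8% of all main probe sets called. Without estrogen 1 was higher and 2 lower, against 37.5% of all. The mean of the 9 on an array lay between 5.79 and 6.06 in oocyte-free complexes with estrogen, against 5.43 to 5.50 in intact complexes with estrogen, and between 6.00 and 6.38 against 5.82 to 5.85 without. Dcn, a matrix proteoglycan, averaged 7.94 in oocyte-free complexes with estrogen against 4.55 in intact ones, and 9.08 against 4.60 without estrogen. Of the 9 it had by far the largest difference, so the higher list means rest largely on Dcn and do not describe the whole list. In cocultures Dcn averaged 4.48 with estrogen and 4.75 without. Only its oocyte-free means lay above the lowest array median, 5.51, so its calls on removal are no further support. The hedgehog pathway genes Ptch1 and Gli1 went the other way without estrogen, with means of 8.44 against 9.66 for Ptch1 and 5.87 against 7.56 for Gli1. With estrogen Ptch1 was higher in oocyte-free complexes, at 9.17 against 8.15. Gli1 averaged 5.34 against 5.68 with estrogen, a difference that was not called. Cyp17a1, Col1a1 and Lum, which define theca and stroma, did not pass the filter on dim values. The part of these markers in the results was not tested.

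The ETO gene Cbfa2t3 followed estrogen. Its main probe set (1438705_at) measured 8.76, 8.88 and 9.11 in cocultures with estrogen, against 5.33, 5.15 and 5.56 without. In oocyte-free complexes it measured 9.50, 9.74 and 8.31 with estrogen, against 8.25, 7.82 and 7.91 without. In intact complexes it measured 8.55, 9.17 and 9.39 with estrogen, against 5.28, 5.92 and 4.87 without. All arrays with estrogen lay above all arrays without it, and the oocyte-free arrays without estrogen stood between. Estrogen raised it by 3.57 ± 0.32 in cocultures, an 11.9-fold difference (limma adjusted p = 3.27e-06), and by 3.68 ± 0.32 in intact complexes, a 12.8-fold difference (limma adjusted p = 2.08e-06). The means without estrogen, 5.35 in cocultures and 5.36 in intact complexes, lay below the lowest array median, 5.51. Fold sizes taken from these 2 groups therefore start at dim values.

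The estrogen rise of Cbfa2t3 in oocyte-free complexes was smaller, 1.19 ± 0.32 (limma adjusted p = 0.0318). Without the array of conflicting labels it was 1.03 (limma adjusted p = 0.153), with array series as a term 0.86 (limma adjusted p = 0.182), and within the series of 3 arrays 0.45 (1 array against 2). The test of the difference passed for this probe set: the estrogen change in oocyte-free complexes was -2.49 ± 0.46 relative to that in intact complexes (limma adjusted p = 0.00513), and that in cocultures was 2.38 ± 0.46 relative to that in oocyte-free complexes (limma adjusted p = 0.00829). Both passed without that array too, at -2.65 (limma adjusted p = 0.00823) and 2.54 (limma adjusted p = 0.0123).

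Seen from the side of the oocyte, Cbfa2t3 rose on removal without estrogen by 2.64 ± 0.32, a 6.22-fold difference (limma adjusted p = 8.28e-06), and fell in cocultures against oocyte-free complexes by 2.65 ± 0.32 (limma adjusted p = 1.02e-05). With estrogen the removal change was 0.15 ± 0.32, with a 95% interval from -0.54 to 0.83 (limma adjusted p = 0.792), and the groups overlapped. The coculture change with estrogen was -0.27 ± 0.32 (limma adjusted p = 0.627).

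The 4 Cbfa2t3 probe sets did not move alike. Probe set 1418582_at rose with estrogen by 1.05 ± 0.21 in cocultures, 0.78 ± 0.21 in oocyte-free and 1.25 ± 0.21 in intact complexes. Probe set 1440964_s_at rose by 0.98 ± 0.23, 0.99 ± 0.23 and 1.20 ± 0.23 in the same order. Their Pearson r with the main probe set over the 18 arrays was 0.93 and 0.88. The fourth, 1440963_at, had an r of 0.22, and its group means lay between 5.65 and 5.93. Neither 1418582_at nor 1440964_s_at had a called interaction. For 1418582_at the values were -0.47 for removal (limma adjusted p = 0.579) and 0.28 for added oocytes (limma adjusted p = 0.851). For 1440964_s_at they were -0.20 (limma adjusted p = 0.864) and -0.01 (limma adjusted p = 0.998). The estrogen changes of Cbfa2t3 in oocyte-free complexes did not pass without the array of conflicting labels, at 0.67 for 1418582_at (limma adjusted p = 0.155) and 0.86 for 1440964_s_at (limma adjusted p = 0.0808). On removal without estrogen 1418582_at rose by 0.59 ± 0.21 (limma adjusted p = 0.0375), and by 0.42 without oocyte-free replicate 1 (limma adjusted p = 0.146). Which stretch of the transcripts each Cbfa2t3 probe set reads, and which of the 2 annotated starts it follows, is not known here.

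**Figure D2:**
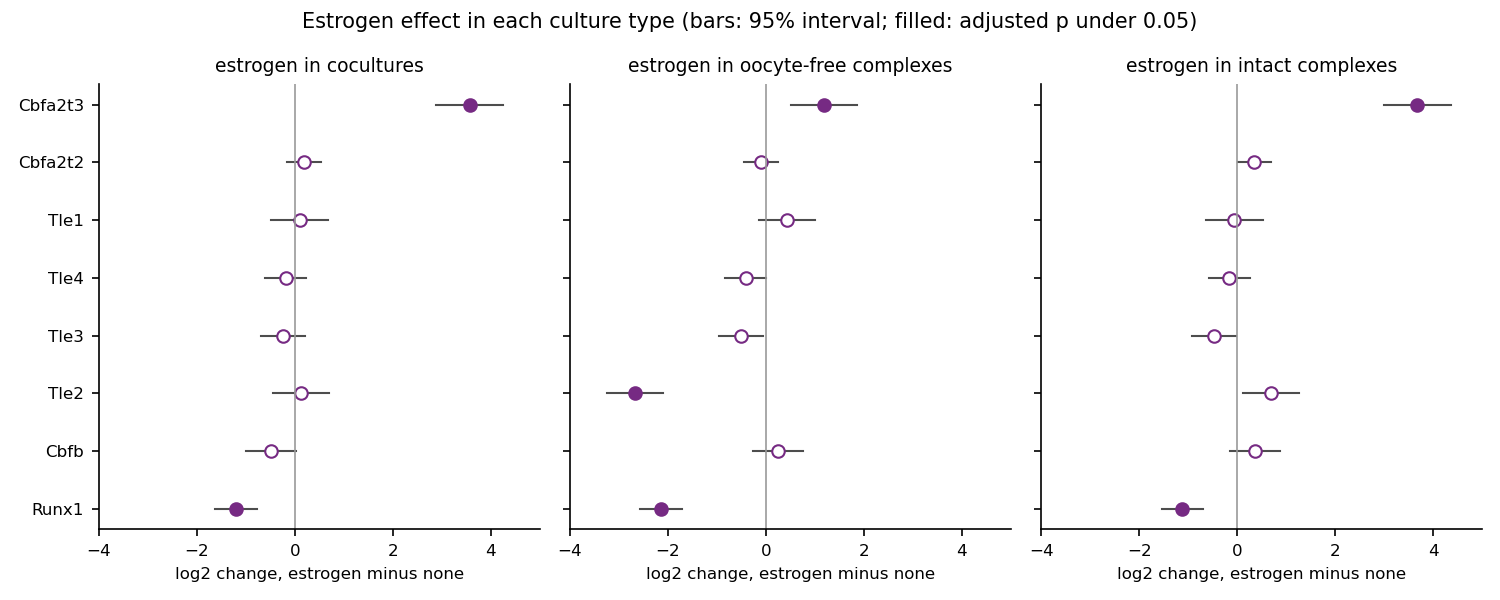
Log2 change with estrogen minus without (horizontal axis) for the main probe set of each of 8 genes, in cocultures, oocyte-free complexes and intact complexes (points are limma estimates, bars 95% intervals, filled points have an adjusted p under 0.05, n = 3 arrays per group). Cbfa2t3 lies right of 0 and Runx1 left of 0 in all 3 culture types, and Tle2 is filled in oocyte-free complexes alone, at -2.68.

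Of the list as a whole, estrogen called 4 of 22 probe sets in cocultures (3 higher, 1 lower), against 3.78% of all tested probe sets (1.94% higher, 1.84% lower). In oocyte-free complexes it called 6 (3 higher, 3 lower), against 7.89% of all (5.27% higher, 2.63% lower). In intact complexes it called 4 (3 higher, 1 lower), against 4.13% of all (2.42% higher, 1.71% lower). The 3 higher ones were Cbfa2t3 probe sets in each culture type. Of the granulosa and cumulus markers, 3, 4 and 3 of 11 were higher with estrogen in cocultures, oocyte-free and intact complexes, and 0, 1 and 0 lower. In the same order, 4.34%, 8.70% and 4.90% of all main probe sets were called. The part of the markers in the result was not tested.

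Cbfa2t2, the ETO relative also known as MTGR1, was called in 1 comparison. Its main probe set (1434757_at) ranged from 8.41 to 9.20 over all 18 arrays, and the group means lay between 8.63 and 9.09. It rose by 0.46 ± 0.16 on removal without estrogen (limma adjusted p = 0.038), a call that was lost with array series as a term (0.53, limma adjusted p = 0.0913). It was called in no other comparison, and its 2 further probe sets were called in none. Of these, 1441615_at had group means from 5.79 to 6.96 and ran from 5.22 to 7.57 over the arrays, with estrogen changes of 0.81 ± 0.38 in cocultures, 0.84 ± 0.38 in oocyte-free and 0.57 ± 0.38 in intact complexes (limma adjusted p = 0.333, 0.186 and 0.487). The group means of 1456416_at lay between 5.70 and 6.00. Runx1t1, which encodes ETO itself, was dim on all 6 of its probe sets. Their values ran from 2.34 to 5.41 over the 18 arrays, below the lowest array median, 5.51. Whether the transcript was missing or its probes weak was not tested.

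Runx1, the DNA-binding factor of the group, was read by 6 probe sets that did not agree. Its main probe set (1440878_at) fell under estrogen in every culture type. It measured 8.01, 7.47 and 7.52 in cocultures with estrogen, against 8.76, 8.57 and 9.25 without. In oocyte-free complexes it measured 7.31, 7.38 and 7.74 with estrogen, against 9.82, 9.61 and 9.44 without. In intact complexes it measured 7.93, 7.61 and 7.65 with estrogen, against 9.09, 8.71 and 8.75 without. No array with estrogen reached the lowest array without it. The fall was -1.19 ± 0.20 in cocultures (limma adjusted p = 0.0016), -2.15 ± 0.20 in oocyte-free complexes, a 4.43-fold difference (limma adjusted p = 4.9e-06), and -1.12 ± 0.20 in intact complexes (limma adjusted p = 0.0026). Without the array of conflicting labels the fall in oocyte-free complexes was -2.06 (limma adjusted p = 7.73e-05). The estrogen changes of Runx1 did not pass the test of a difference between culture types, at -1.03 ± 0.29 for oocyte-free relative to intact complexes (limma adjusted p = 0.0721) and 0.95 ± 0.29 for cocultures relative to oocyte-free complexes (limma adjusted p = 0.109).

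On removal without estrogen the main Runx1 probe set rose by 0.77 ± 0.20 (limma adjusted p = 0.00634), but with array series as a term the value was 0.33 (limma adjusted p = 0.367). With estrogen the removal change was -0.25 ± 0.20 and the groups overlapped (limma adjusted p = 0.394). Cocultures without estrogen fell by 0.76 ± 0.20 against oocyte-free complexes (limma adjusted p = 0.00844), and the value was -0.52 with array series as a term (limma adjusted p = 0.0821) and -0.62 without coculture replicate 2 (limma adjusted p = 0.0526). A call in the opposite direction came from 1427650_a_at. It measured 6.13, 5.55 and 6.26 in oocyte-free complexes with estrogen, against 7.46, 7.06 and 7.18 in intact complexes with estrogen. Without estrogen it measured 6.48, 6.20 and 6.39 in oocyte-free complexes, against 7.17, 7.47 and 7.16 in intact complexes. All oocyte-free arrays were below all intact ones. The fall was -1.25 ± 0.18 with estrogen (limma adjusted p = 5.11e-05) and -0.91 ± 0.18 without (limma adjusted p = 0.00076). In cocultures it rose by 1.40 ± 0.18 with estrogen (limma adjusted p = 2.08e-05) and by 0.81 ± 0.18 without (limma adjusted p = 0.00242). It showed no called estrogen change, at 0.22, -0.38 and -0.03 in cocultures, oocyte-free and intact complexes.

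**Figure D3:**
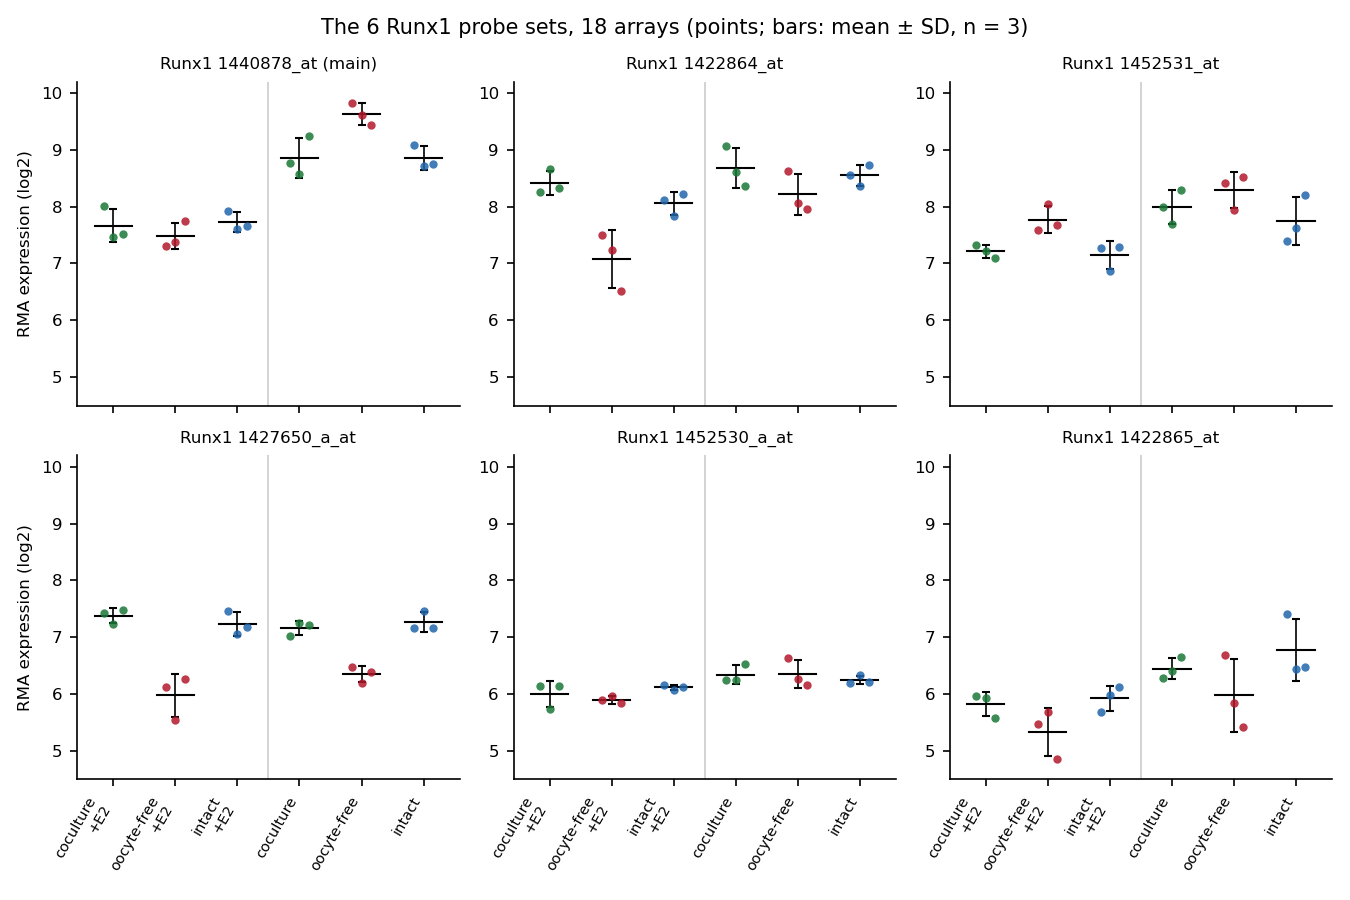
Log2 expression (vertical axis) of the 6 Runx1 probe sets in each of 18 arrays, with estrogen to the left of the grey line and without it to the right (points are arrays, bars the mean ± SD, n = 3). Probe set 1440878_at is lower on all arrays with estrogen, while 1427650_a_at is lower on all 6 oocyte-free arrays.

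The other Runx1 probe sets followed neither pattern in full. Their estrogen changes were negative in every culture type, and only that of 1422864_at in oocyte-free complexes was called. In cocultures, oocyte-free and intact complexes they were -0.26, -1.14 and -0.49 for 1422864_at, and -0.78, -0.52 and -0.60 for 1452531_at. For 1422865_at they were -0.62, -0.64 and -0.85, and for 1452530_a_at -0.34, -0.45 and -0.13. Probe set 1422864_at fell on removal with estrogen by 0.98 ± 0.25 (limma adjusted p = 0.00688), rose in cocultures with estrogen by 1.34 ± 0.25 (limma adjusted p = 0.000791), and fell under estrogen in oocyte-free complexes by 1.14 ± 0.25 (limma adjusted p = 0.00938). Probe set 1422865_at fell on removal without estrogen by 0.80 ± 0.30 (limma adjusted p = 0.0495, groups overlapping), and without intact replicate 1 the value was -0.48 (limma adjusted p = 0.254). Without oocyte-free replicate 3 it was -0.52 (limma adjusted p = 0.228). Probe set 1452531_at rose on removal with estrogen by 0.63 ± 0.22 (limma adjusted p = 0.0465), and 1452530_a_at was called in no comparison. Those of the called Runx1 changes with estrogen that used the array of conflicting labels were still called without it. On removal they were -1.33 for 1427650_a_at (limma adjusted p = 0.000157), -1.19 for 1422864_at (limma adjusted p = 0.00315) and 0.72 for 1452531_at (limma adjusted p = 0.0484). In cocultures they were 1.48 for 1427650_a_at (limma adjusted p = 7.34e-05) and 1.55 for 1422864_at (limma adjusted p = 0.000485), and under estrogen in oocyte-free complexes -1.35 for 1422864_at (limma adjusted p = 0.00843). Pearson r with the main Runx1 probe set over 18 arrays ran from -0.02 (1427650_a_at) to 0.79 (1452530_a_at). Which of the 2 annotated starts shown above each probe set follows is not in the files.

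Cbfb, the partner subunit, was called in 1 comparison. Its probe set (1460716_a_at) measured 8.98, 8.99 and 8.39 in cocultures without estrogen, against 8.77, 7.92 and 7.69 in oocyte-free complexes. The groups overlapped. The rise was 0.66 ± 0.24 (limma adjusted p = 0.048). With array series as a term it was 0.32 (limma adjusted p = 0.459), and within the series of 2 arrays it was -0.38 (1 array against 1). Over the 6 groups the Cbfb means lay between 8.13 and 8.79.

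Cocultures and intact complexes differ in whether the oocyte is the complex's own or added. Hardly any probe set of the whole table was called between them, so the counts are nothing particular to these genes. With estrogen 0 of 22 probe sets were called, against 0.00471% of all tested probe sets (1 probe set), and without estrogen 0 were called, against 0% of all. At an unadjusted limma p under 0.05 the counts were 0 of 22 with estrogen and 1 of 22 without, against 508 and 1216 of all 21249 tested. The 1 was Cbfb, with a difference of 0.56 and a 95% interval from 0.05 to 1.07. The differences of the main probe sets lay between -0.29 and 0.13 with estrogen and between -0.32 and 0.56 without. For Tle2 the difference was -0.20 with estrogen, with a 95% interval from -0.77 to 0.37, and 0.37 without, with an interval from -0.20 to 0.94. The Tle2 arrays without estrogen did not overlap, at 6.49 to 6.80 in cocultures and 6.22 to 6.33 in intact complexes. Nor did those of Runx1 probe set 1422864_at with estrogen, at 8.26 to 8.66 and 7.83 to 8.22. For Cbfa2t3 it was -0.12 with estrogen, with an interval from -0.80 to 0.56, and -0.01 without, with an interval from -0.69 to 0.67.

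**Figure D4:**
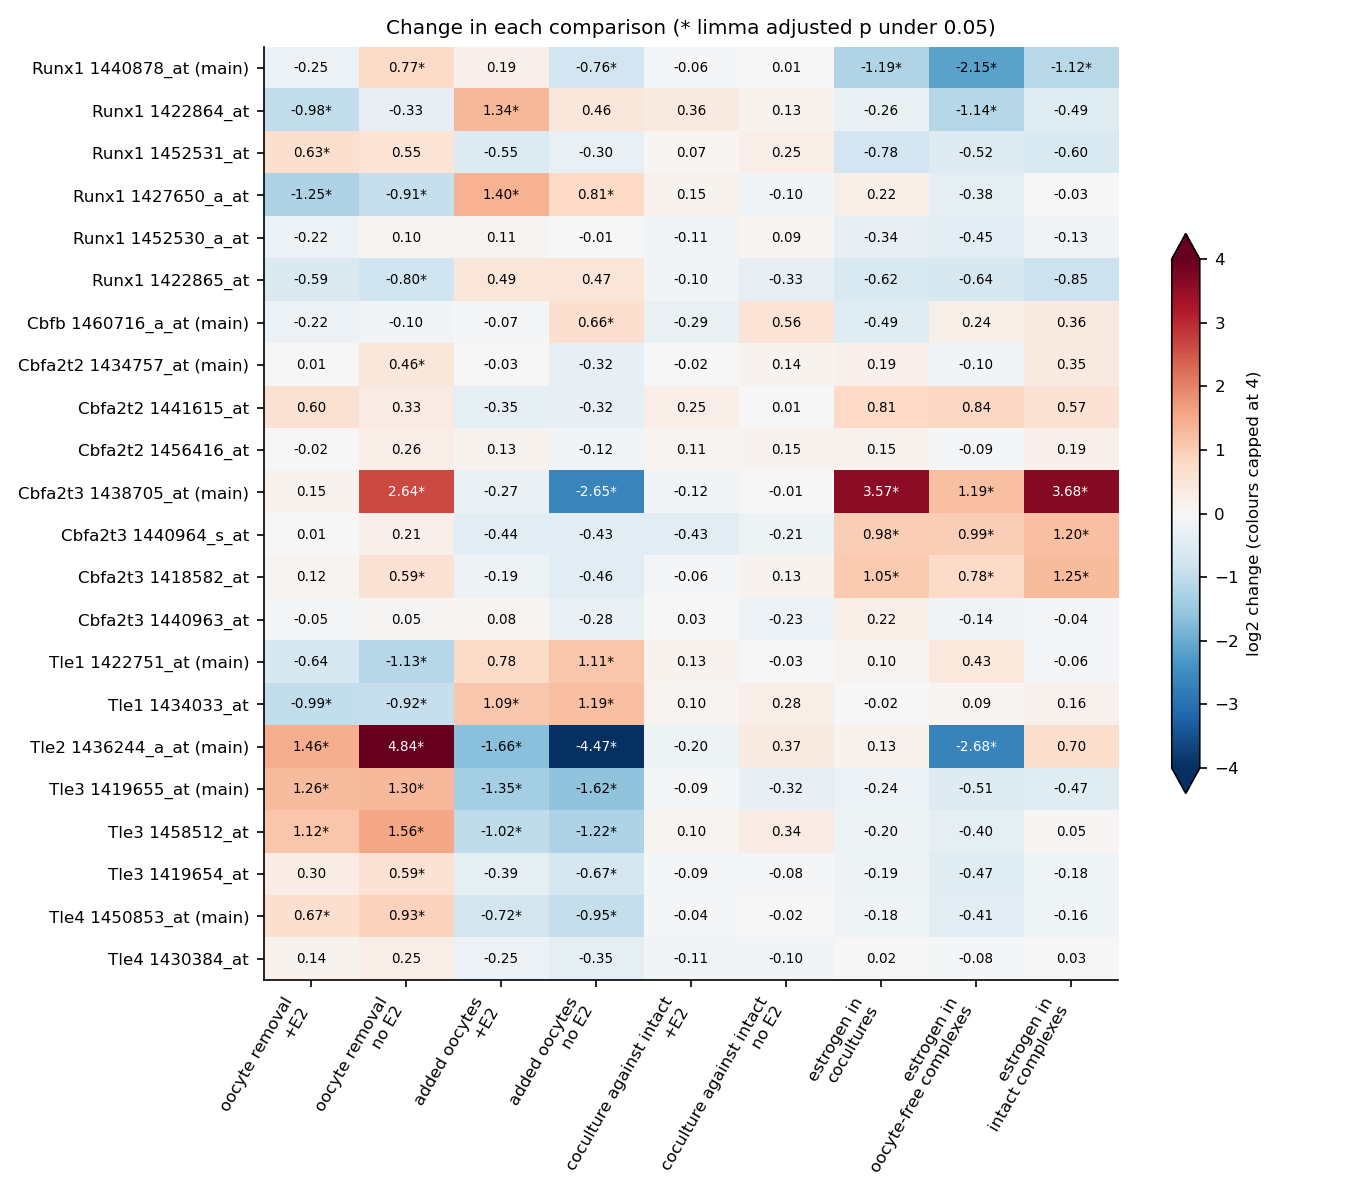
Log2 change of the 22 tested probe sets (rows) in 9 comparisons (columns), each coculture or oocyte-free group minus its comparison group, or estrogen minus none, with red for higher and blue for lower and colours capped at 4 in either direction. A star marks a limma adjusted p under 0.05, and the columns of coculture against intact have none.

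Relatives outside the list were read the same way. Tle6, known in the mouse oocyte as part of the maternal complex under the cell membrane, measured 7.95, 8.30 and 8.57 in oocyte-free complexes without estrogen, against 7.18, 6.84 and 7.06 in intact complexes. With estrogen it measured 7.10, 7.24 and 7.51 in oocyte-free complexes, against 7.33, 7.19 and 7.24 in intact complexes. The groups were apart without estrogen and overlapped with it. The rise was 1.25 ± 0.19 without estrogen (limma adjusted p = 8.77e-05), the change 0.03 ± 0.19 with it (limma adjusted p = 0.932), and the interaction -1.22 ± 0.27 (limma adjusted p = 0.021). Estrogen lowered Tle6 in oocyte-free complexes by 0.99 ± 0.19 (limma adjusted p = 0.00443). Without the array of conflicting labels that fall was -0.90 (limma adjusted p = 0.0337) and the interaction -1.13, which did not pass (limma adjusted p = 0.0669). Tle5, a short TLE protein that can act against the others, and Runx3 were called in no comparison, with group means between 5.96 and 6.40 for Tle5 and between 5.81 and 6.19 for Runx3.

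Genes that work with these factors were counted by list, 1 main probe set per gene. Of the partners and regulators of RUNX, 16 of 19 were tested, and on removal without estrogen 9 were higher and 2 lower, where 37.5% of all 12246 main probe sets were called (17.4% higher, 20.1% lower). Their median change was 0.47, against 0.01 over all. With estrogen 5 were higher and 0 lower, against 28.8% of all (12.3% higher, 16.5% lower), and the median change was 0.44, against -0.05 over all. Smad3, a transducer of TGF-beta and activin signals, rose by 1.20 ± 0.20 with estrogen (limma adjusted p = 0.00019) and by 1.65 ± 0.20 without (limma adjusted p = 5.34e-06). Smad1, which carries BMP signals, rose with estrogen by 0.91 ± 0.22 (limma adjusted p = 0.00512), and the acetyltransferase gene Kat6b rose without estrogen by 1.20 ± 0.26 (limma adjusted p = 0.00154). Estrogen called 0 of the 16 in any culture type, against 4.34% of all main probe sets in cocultures, 8.70% in oocyte-free and 4.90% in intact complexes.

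DNA-binding factors were listed by name as partners of TLE proteins, and recruitment by each, Hey1 and Hey2 included, is not shown here. Of these 15 factors, 6 were tested. On removal with estrogen 2 were higher and 1 lower, and without estrogen 0 were higher and 3 lower, with median changes of -0.14 and -0.25. Of all main probe sets, 28.8% were called with estrogen and 37.5% without. Hey2, a Notch-induced repressor, fell on removal by 1.86 ± 0.18 with estrogen (limma adjusted p = 7.74e-07) and by 1.65 ± 0.18 without (limma adjusted p = 2.31e-06). With estrogen it was 2.61-fold higher in cocultures (limma adjusted p = 0.000138), 1.85-fold higher in oocyte-free complexes (limma adjusted p = 0.00589) and 2.15-fold higher in intact complexes (limma adjusted p = 0.00114). Tcf7l2, a Wnt-pathway factor, rose on removal with estrogen by 1.88 ± 0.31 (limma adjusted p = 0.00019), and its relative Tcf7l1 fell without estrogen by 0.93 ± 0.19 (limma adjusted p = 0.000884).

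Among 7 tested partners of ETO proteins (11 listed), 2 were higher and 1 lower on removal in either medium, with median changes of 0.30 with estrogen and 0.37 without, against 28.8% and 37.5% of all main probe sets called. The repressor gene Bcl6 rose by 1.89 ± 0.24 with estrogen (limma adjusted p = 1.76e-05) and by 1.38 ± 0.24 without (limma adjusted p = 0.000298). Ldb1, an adaptor of LIM-domain factors, rose by 1.42 ± 0.33 with estrogen (limma adjusted p = 0.0037) and by 1.48 ± 0.33 without (limma adjusted p = 0.00205). Prkar2a, a regulatory subunit of protein kinase A, fell by 1.07 ± 0.24 with estrogen (limma adjusted p = 0.00322) and by 2.07 ± 0.24 without (limma adjusted p = 5.47e-06).

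Of the deacetylase and corepressor enzymes, 10 were tested (12 listed). On removal 2 were higher and 0 lower with estrogen, against 28.8% of all main probe sets called, and 1 was higher and 1 lower without, against 37.5% of all. Their median change was 0.02 with estrogen and 0.34 without, against -0.05 and 0.01 over all. Estrogen called 0 of them in any culture type, against 4.34% to 8.70% of all. Tbl1xr1, a subunit of the nuclear receptor corepressor complex, rose on removal by 0.98 ± 0.25 with estrogen (limma adjusted p = 0.0062) and by 1.00 ± 0.25 without (limma adjusted p = 0.00423). Of 18 genes known as RUNX targets in bone, blood or rat granulosa cells, 6 were tested. On removal 1 was higher and 1 lower in each medium, with median changes of 0.00 with estrogen and 0.03 without, against 28.8% and 37.5% of all main probe sets called. The higher one was Cdkn1a, a cell cycle inhibitor, at 1.71 ± 0.19 with estrogen (limma adjusted p = 2.96e-06) and 1.79 ± 0.19 without (limma adjusted p = 1.41e-06). The lower one was Rgcc, at -1.31 ± 0.34 with estrogen (limma adjusted p = 0.0078) and -1.50 ± 0.34 without (limma adjusted p = 0.00231). Estrogen called 1 of the 6 as lower in each culture type, against 4.34% of all main probe sets called in cocultures, 8.70% in oocyte-free and 4.90% in intact complexes. That gene was Ptgds, a prostaglandin D synthase, in cocultures (-0.83 ± 0.17, limma adjusted p = 0.00767) and in oocyte-free complexes (2.14-fold lower, limma adjusted p = 0.000732), and Rgcc in intact complexes (-1.26 ± 0.34, limma adjusted p = 0.0447).

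The removal changes with estrogen of these partner, enzyme and target genes were computed again without the array of conflicting labels, and each of the 10 that follow was still called. The values were 1.28 for Smad3, 0.94 for Smad1, -1.85 for Hey2, 1.91 for Tcf7l2, 2.00 for Bcl6, 1.54 for Ldb1, -1.34 for Prkar2a, 0.92 for Tbl1xr1, 1.67 for Cdkn1a and -1.30 for Rgcc, with limma adjusted p between 8.28e-06 and 0.0247. The change of Tbl1x, a subunit of the same corepressor complex as Tbl1xr1, was 0.59 (limma adjusted p = 0.0210) and without the array 0.58 (limma adjusted p = 0.0510). The list counts were then 6 higher and 0 lower for the partners of RUNX, and 2 and 2 for the factors listed as partners of TLE. They were 2 and 1 for the partners of ETO, 1 and 1 for the enzymes and 1 and 1 for the targets. Under estrogen in oocyte-free complexes without the array, the change of Ptgds was -0.98 (limma adjusted p = 0.00722) and the change of Hey2 was 0.89 (limma adjusted p = 0.0281). Prkar2a, the 1 of 7 partners of ETO called there, had a change of 0.89 ± 0.24 (limma adjusted p = 0.0324), and of 0.62 without the array (limma adjusted p = 0.190).

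For the 3 genes with the widest range of group means, the genes of most similar course over the 18 arrays were listed by Pearson r. The arrays share their groups, so a high r describes a similar pattern over 6 groups. For Tle2 (range 4.84) they were Bicc1 (0.975), Clstn3 (0.975) and Tec (0.972), and Bicc1 averaged 6.87 in oocyte-free against 5.45 in intact complexes with estrogen, and 8.90 against 5.55 without. For Cbfa2t3 (range 3.84) they were Zmiz1 (0.946), Tmem86a (0.934) and Mtcl1 (0.932), and Mtcl1 averaged 8.37 in cocultures with estrogen against 5.94 without. For Runx1 (range 2.15) they were Lgals7 (0.948), Ttc39a (0.921) and Shisa7 (0.913), and Lgals7 averaged 6.25 in oocyte-free complexes with estrogen against 7.80 without.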

How the data were processed

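RNA from cumulus cells was amplified in a repeated labelling procedure from small amounts of total RNA and hybridised to Affymetrix mouse 430 2.0 arrays, per the labels' protocols. The authors deposited log2 values, which the submitters' processing notes trace to RMA in Expression Console 1.1. RMA corrects background, quantile-normalizes the arrays and summarises probe sets, so it hides a common shift of all transcripts, and changes of dim genes are understated. Scanner files and detection calls were not used here, and the number of arrays limits the precision.

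Of 45101 probe sets, 34945 had 1 gene symbol in the platform annotation, 932 had several and 9160 had none listed. Symbols were checked against a RefSeq table (GRCm38.p6) through Entrez identifiers. The 21249 probe sets above the array median on at least 3 of 18 arrays went into a linear model of 6 group means with no covariates, moderated across probe sets and two-sided (limma 3.58.1, R 4.3.3). The 11 contrasts were each adjusted by Benjamini-Hochberg over all tested probe sets, and an adjusted p under 0.05 was called. The SE rests on a spread shared by all groups. The steps were tested on simulated data.

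The genes, lists and tests were chosen with earlier results of these data known. All list genes with a probe set are named, relatives are Runx3, Tle5 and Tle6, and of each other list at most the 4 called genes with the largest change in a contrast were eligible to be named. The title numbers run in 3 rounds of 6, and samples of the same round did not deviate together (median correlation -0.012 over 45 pairs, against -0.013 over 90 pairs of other rounds), so they were not treated as pairs. Alternatives were array series as a term or random block, title round as a block, array weights, no filter, a further quantile normalization, 1 probe set per gene, only the groups of a contrast, the largest array series alone, and each array left out in turn.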

Additional observations from a re-analysis of the deposited data

Results flagged for a closer look

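For the main probe sets of Tle2 and Cbfa2t3 the estrogen change differed between culture types by the interaction test itself. For Tle2 the estrogen change in oocyte-free complexes was -3.38 relative to that in intact complexes (limma adjusted p = 9.6e-05), and that in cocultures was 2.81 relative to that in oocyte-free complexes (limma adjusted p = 0.000595). For the main probe set of Cbfa2t3, 1 of 4, the same differences were -2.49 (limma adjusted p = 0.00513) and 2.38 (limma adjusted p = 0.00829). The 2 interactions share the oocyte-free arrays. Under the alternatives the values ran from -3.89 to -3.01 and from 2.46 to 3.28 for Tle2, and from -2.82 to -2.05 and from 1.94 to 2.68 for Cbfa2t3, and each stayed called. The other 3 Cbfa2t3 probe sets had no called interaction, with limma adjusted p between 0.579 and 0.998.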

How the results depend on the processing

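Of 57 called results of the listed genes, 39 were called under every alternative, and of 1479 recomputed values 1373 kept the call, 106 lost it and 0 changed sign. Over 1 probe set per gene (8 probe sets, so fewer by construction) the counts were 7 and 3 on removal without and with estrogen, 7 and 4 for cocultures against oocyte-free complexes without and with estrogen, and 2, 3 and 2 for estrogen in cocultures, oocyte-free and intact complexes. Of all 12246 main probe sets the counts in this order were 4744 and 3703, 4064 and 3012, and 570, 1181 and 708. With array series as a term, removal without estrogen called 8, against 4492 of all 21249 tested probe sets (7461 in the main model). Estrogen in oocyte-free complexes then called 3, against 712 of all (1677 in the main model). Array weights gave 7 for estrogen in cocultures, 7 in intact complexes and 4 for the added-oocyte interaction. They called 2803, 2850 and 1834 of all (804, 878 and 475 in the main model). With only the groups of the contrast, estrogen in oocyte-free complexes called 2, against 237 of all. The counts over the whole table thus moved the same way. The cause of these shifts was not tested. Leaving out 1 array gave 2 to 5 for estrogen in cocultures (2 without coculture replicate 3 with estrogen) and 3 to 7 in oocyte-free complexes (3 without oocyte-free replicate 1 with estrogen, the array of conflicting labels). Title round as a replicate block gave 11 and 7 on removal without and with estrogen, 11 and 7 for cocultures against oocyte-free complexes, 4, 6 and 4 for estrogen in cocultures, oocyte-free and intact complexes, 2 for each interaction and 0 for cocultures against intact complexes. The largest array series alone could not be fitted where it lacked a group.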
